A study of Mus musculus with 26 samples.

Results

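A set of 34 genes of fibroblast matrix, contractile apparatus and mesenchymal identity was followed across all 13 groups of a mouse stem cell array series, as a readout of RNA from the fibroblast feeder layer. Members were chosen by gene symbol, as a list of genes that fibroblasts are known to make, and where several probe sets carried a gene's symbol and no other, the brightest on average stood for it. Of the 34 named genes, 33 were measured, among 18193 genes with a value in all, and Fbn1 had no probe set with its symbol alone in the annotation used. For 23 of the 33 more than 1 probe set was available.

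Fibroblasts build the connective tissue matrix: they secrete fibrillar collagens, the proteoglycans and glycoproteins that organise the fibrils, and the enzymes that cross-link or cleave them. A feeder layer is a sheet of fibroblasts on which stem cells are grown, and RNA extracted from such a culture can hold transcripts of both cell kinds. Genes of the actin cytoskeleton such as Tagln, Cnn1 and Tpm2 are typical of smooth muscle and of activated fibroblasts, but other cell types transcribe them too.

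The series compared mouse embryonic stem cells that differ in Prdm14, a PR-domain regulator of naive pluripotency and germ cell specification, in several media, with 2 arrays in each group. All cells were C57BL/6 and male. Wild-type stem cells were Prdm14(+/+) with no genetic modification. Cells labelled knockout were Prdm14(-/-) stem-cell-like cells, and cells labelled AGP14 were knockout cells that carried pPyCAG-AGP14, a transgene for Prdm14 fused to an Avitag and EGFP. These 3 genotypes were grown in 2i (N2B27 with LIF at 1000 units per ml, the MEK inhibitor PD0325901 at 0.4 uM and the GSK3 inhibitor CHIR99021 at 3 uM), in serum (GMEM with 20% fetal bovine serum and LIF at 1000 units per ml, for 2 days) and in serum without LIF. Wild-type and knockout cells were also grown in serum with PD0325901 at 0.4 uM. The labels place the stem cells of all media on mouse embryonic fibroblasts. A Prdm14(+/+) line with the Blimp1-mVenus and Stella-ECFP reporters gave epiblast-like cells (EpiLC), sampled on day 2 and on day 3, and the labels give neither a growth surface nor a medium for them. No array of feeders alone was analysed here. Separate cultures are not stated for the replicates, so each p-value reflects only how far these arrays spread, which may be technical.

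The probe set of the targeted gene went against the genotype labels in 2 media. In 2i, Prdm14 read 9.18 ± 0.32 (SD, n = 2) on wild-type and 11.28 ± 0.06 on knockout-labelled arrays, and in the same order of labels it read 9.26 ± 0.31 and 10.74 ± 0.19 with MEK inhibitor, 6.63 ± 1.06 and 5.94 ± 0.76 in serum, and 4.73 ± 0.63 and 3.63 ± 0.59 when LIF was removed. AGP14 arrays held 9.21 ± 0.13, 6.38 ± 0.06 and 4.99 ± 0.18 in 2i, serum and serum lacking LIF, and EpiLC arrays held 3.07 ± 0.19 on day 2 and 2.91 ± 0.30 on day 3. The sources used here do not say whether this probe set lies in the deleted part or reads the transgene, so every direction between genotypes below rests on the labels. Arrays also fell into 2 sets by a control added during labelling: the lys spike-in lay at 13.28 to 13.51 on 12 arrays (wild type and knockout in 2i and with MEK inhibitor, and EpiLC) and at 7.08 to 7.54 on the other 14. The difference between 3' and 5' probe sets of Gapdh was -0.23 to -0.16 on the former and -0.03 to 0.05 on the latter, and that of beta-actin 0.18 to 0.33 and 0.52 to 0.63. Serum against 2i in wild type and in knockout, MEK inhibitor against serum, and AGP14 against knockout in 2i run across these sets, where set and group cannot be told apart. Serum against 2i within AGP14, MEK inhibitor against 2i, and the EpiLC comparisons run within 1 set, so the account leads with them.

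Values are log2 signals as deposited, with the base inferred. The mean of the 33 genes was highest in 2i, intermediate with MEK inhibitor, lower in serum with or without LIF, and lowest in EpiLC. On single arrays it was 9.26 and 9.24 in wild type, 9.05 and 9.20 in knockout and 8.82 and 8.61 in AGP14 in 2i, then 8.28 and 8.31 in wild type and 8.03 and 8.31 in knockout with MEK inhibitor. In serum it was 7.23 and 7.35 in wild type, 7.42 and 7.40 in knockout, and 7.64 and 7.61 in AGP14. Without LIF it was 7.19 and 7.39 in wild type, 7.70 and 7.59 in knockout, and 7.90 and 7.85 in AGP14. EpiLC gave 6.17 and 6.22 on day 2 and 6.49 and 6.46 on day 3. The 2i arrays, the MEK inhibitor arrays, the serum arrays of both kinds and the EpiLC arrays formed 4 ranges that did not overlap. Within the serum range, wild type with and without LIF (7.29 ± 0.09 and 7.29 ± 0.15) did not differ beyond their spread. In knockout the list lay at 7.41 ± 0.01 with LIF and 7.64 ± 0.08 without, and in AGP14 at 7.62 ± 0.02 and 7.87 ± 0.03, and in both the arrays without LIF were above those with it, without overlap. The mean of all 18193 genes lay between 6.23 and 6.34 on every array. In RNA from whole cultures, fewer cells of a type and less RNA per cell cannot be told apart.

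**Figure D1:**
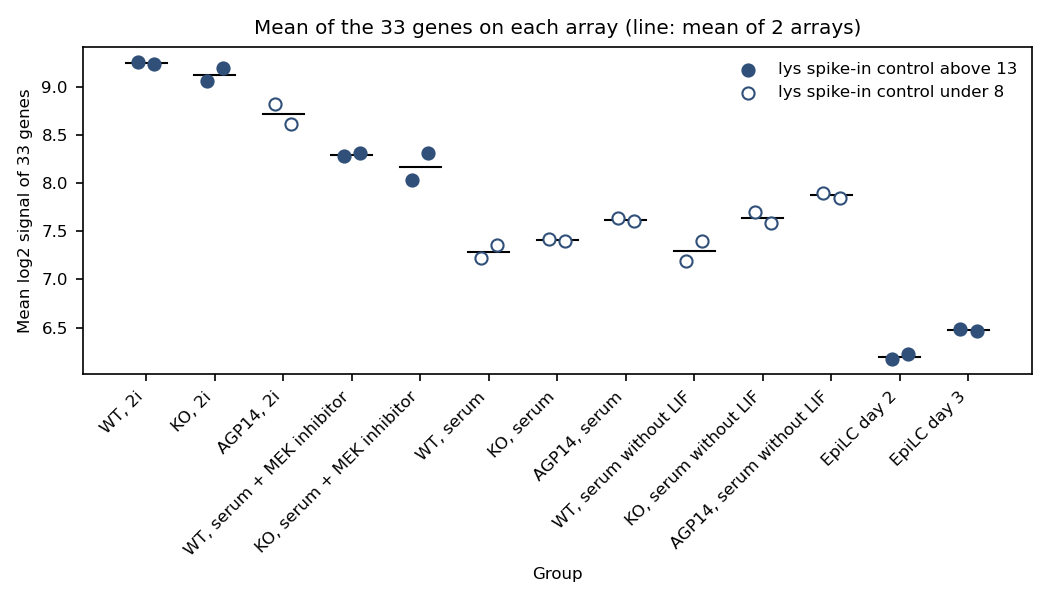
Mean log2 signal of the 33 genes (vertical axis) on each of 26 arrays by group (horizontal axis), with lines for the mean of 2 arrays, filled points for arrays with the lys spike-in above 13 and open points for those under 8. The 2i arrays sit between 8.61 and 9.26, and the EpiLC arrays between 6.17 and 6.49.

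Single members mostly had this order. Of the 33, 26 had their highest group mean in a 2i group, 5 in an EpiLC group and 2 in serum without LIF, while 23 had their lowest in an EpiLC group and 4 in a 2i group. The like counts over all genes were not made, so these do not show an order particular to the members. The range of group means had a median of 3.74 over the members and 1.17 over all genes. Over the 22 stem cell arrays, 18 members had a Pearson r of at least 0.9 to the mean of the other members, as a description of arrays that share media, lines and labelling. Col1a2 had the highest r (0.994), and 8 members had r under 0.5: Cnn1 (-0.883), Tpm2 (-0.779), Mgp (-0.515), Thy1 (-0.335), Tagln (-0.273), Twist1 (-0.083), Serpinf1 (0.396) and Acta2 (0.454). Genes that are not members also reached a high r to the members' mean over these arrays, with B2m at 0.977, Cept1 at 0.972 and Tstd3 at 0.97. The share of all genes with r of at least 0.9 was not counted. Over the 12 arrays in serum with or without LIF, where the mean of the members ranged from 7.19 to 7.90, r was at least 0.9 for 11 members and under 0.5 for 10. With genes called in the direction opposite to the members' median added, 13 members stood apart in at least 1 way, so the name of feeder fibroblast genes describes a shared order of groups for most members but not all. Those apart included the contractile Tagln, Acta2, Tpm2 and Cnn1, but not Cald1 (r 0.737), and members of other roles such as Mgp, Serpinf1 and Fn1. Replicates could differ across the whole list. In AGP14 in 2i, 30 of 33 members were higher on replicate 1 (median -0.22 for replicate 2 minus replicate 1), against 47.1% of all genes. In knockout with MEK inhibitor, 29 of 33 were higher on replicate 2 (median 0.27), against 55.0% of all genes.

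**Figure D2:**
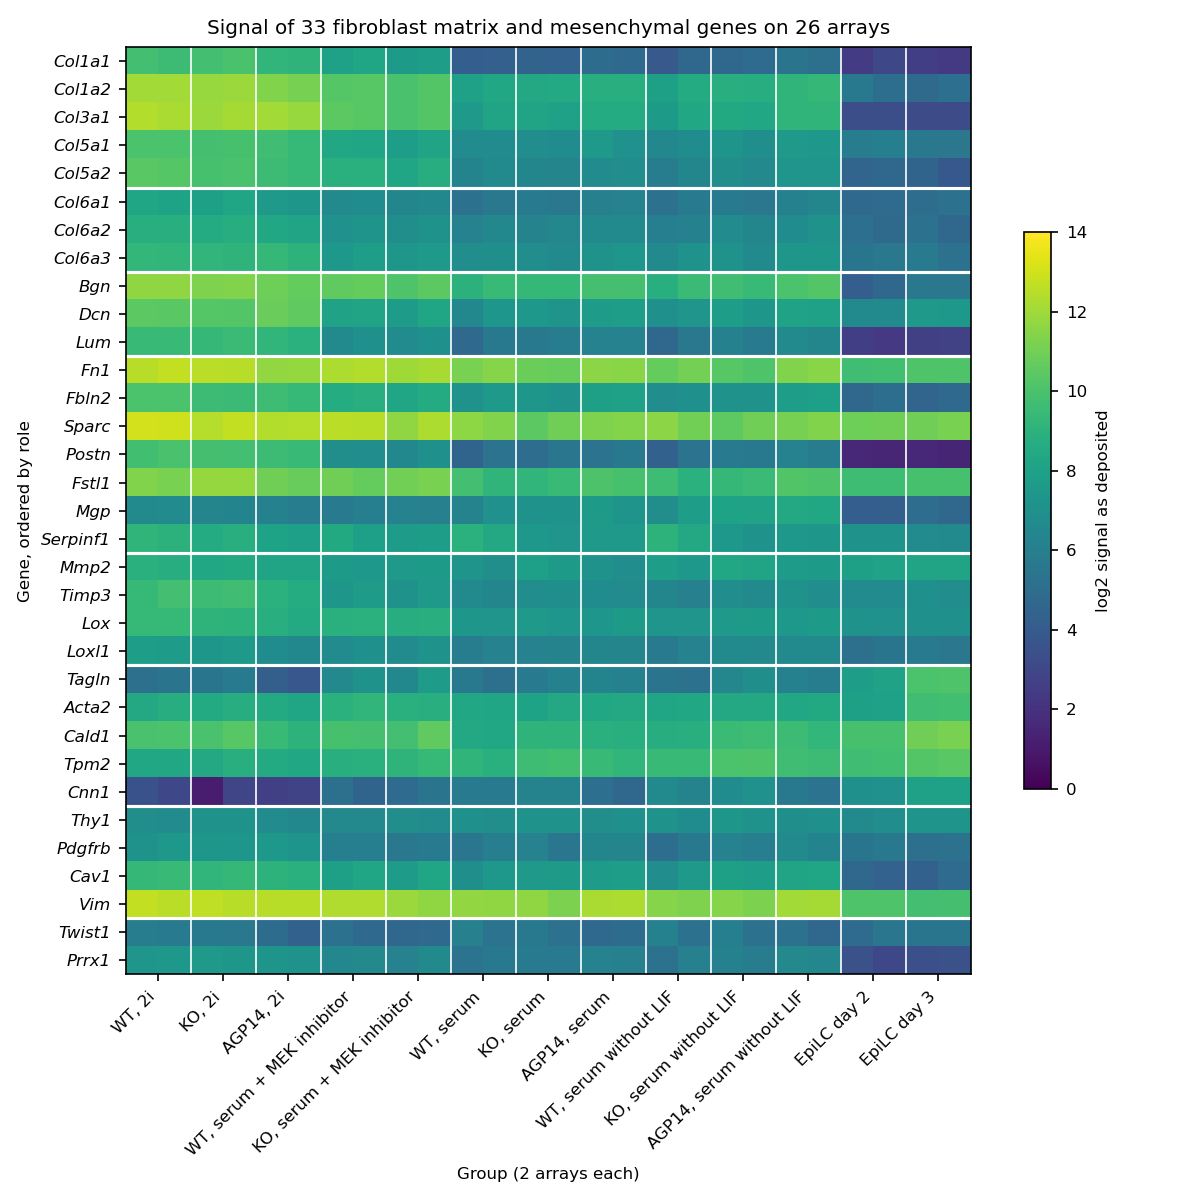
Log2 signal (colour) of the 33 genes (rows, ordered by role) on 26 arrays (columns, by group). Collagens and proteoglycans run from high in 2i to low in EpiLC, while Cnn1 runs the other way; colours are read along a row, since levels of different probe sets are not comparable.

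To set the promoters of genes at both ends of this order side by side, the 250 bases before the start were read from the RefSeq promoter table of build GRCm38.p6, which held 22 of the 34 named genes in 26 windows. Col1a2 (chr6:4505368-4505617, plus strand) and Col3a1 (chr1:45311288-45311537, plus strand) are collagen genes that fell together, and Tpm2 (chr4:43523555-43523804, minus strand) and Cnn1 (chr9:22099003-22099252, plus strand) had the lowest r. Capitals mark CCAAT and TATAAA, searched on both strands.
Col1a2: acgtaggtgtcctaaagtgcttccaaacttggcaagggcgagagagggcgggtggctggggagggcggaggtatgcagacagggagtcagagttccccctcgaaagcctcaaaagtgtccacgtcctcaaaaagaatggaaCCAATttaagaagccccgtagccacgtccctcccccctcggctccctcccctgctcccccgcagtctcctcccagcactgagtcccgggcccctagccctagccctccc
Col3a1: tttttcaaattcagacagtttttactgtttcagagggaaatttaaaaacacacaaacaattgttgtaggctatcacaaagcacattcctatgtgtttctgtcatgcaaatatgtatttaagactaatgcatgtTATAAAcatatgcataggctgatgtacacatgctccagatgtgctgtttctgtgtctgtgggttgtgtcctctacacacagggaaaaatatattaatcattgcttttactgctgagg
Tpm2: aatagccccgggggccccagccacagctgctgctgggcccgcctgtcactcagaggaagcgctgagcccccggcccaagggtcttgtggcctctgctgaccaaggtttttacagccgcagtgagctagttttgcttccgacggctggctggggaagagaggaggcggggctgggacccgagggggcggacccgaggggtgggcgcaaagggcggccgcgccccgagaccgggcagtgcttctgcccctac
Cnn1: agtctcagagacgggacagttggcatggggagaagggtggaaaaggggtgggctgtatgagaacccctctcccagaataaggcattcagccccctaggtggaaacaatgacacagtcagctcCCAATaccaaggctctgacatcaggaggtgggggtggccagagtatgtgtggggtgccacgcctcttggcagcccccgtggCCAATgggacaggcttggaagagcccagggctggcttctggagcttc
CCAAT stood at -109 to -105 from the start in Col1a2 and at -128 to -124 and -47 to -43 in Cnn1, TATAAA at -117 to -112 in Col3a1, and Tpm2 held neither. Over the listed members, 6 of 22 genes held CCAAT and 6 held TATAAA in a window, against 33.8% and 12.4% of 32851 windows in the table. The units differ: a gene with more than 1 window counted if any of them held the motif, while the shares are of single windows. The strict form of the CArG box, with no mismatch allowed, was in 0 of the 22 genes and in 1.47% of all windows, and forms with a mismatch were not searched. These matches describe letters in 1 window of each start and say nothing of binding.

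The members were counted first in the comparisons within 1 spike-in set, by limma with an adjusted p under 0.05. From 2i to serum in AGP14, 21 members were lower and 4 higher, where 18.2% of all genes were called (8.22% lower and 9.97% higher), and the median difference was -1.06 over the members and 0.005 over all genes. With MEK inhibitor against 2i, 22 were lower and 4 higher in wild type (12.5% of all genes called, 7.06% lower and 5.45% higher, median -1.05) and 22 lower and 3 higher in knockout (13.2% of all genes called, 6.59% lower and 6.61% higher, median -0.99). EpiLC day 2 had 27 lower and 3 higher than wild type in 2i (38.3% of all genes called, 21.1% lower and 17.2% higher, median -2.85), and day 3 had 8 higher and 2 lower than day 2 (17.6% of all genes called, 9.69% lower and 7.89% higher, median 0.20). Of these calls, 23 of 25, 20 of 26, 22 of 25, 30 of 30 and 5 of 10 held without any 1 array of the compared groups. Within a genotype same-numbered arrays deviated together, so an adjusted p with the replicate number as a block is given where it changes a call between media. With the block Serpinf1 (-0.52, adjusted p = 0.00236) was also called from 2i to serum in AGP14. With MEK inhibitor against 2i, Sparc (-0.48 and -0.57, adjusted p = 0.00173 and 0.000284) and Twist1 (-0.81 and -0.88, adjusted p = 0.0281 and 0.0163) were added in wild type and knockout, Fstl1 (-0.47, adjusted p = 0.00204) in wild type, and Lox and Loxl1 (-0.29 and -0.54, adjusted p = 0.0386 and 0.0162) in knockout. From day 2 to day 3 the count was 6 without replicate 1 of day 2. MEK inhibitor and EpiLC were compared with the same wild-type 2i arrays. The EpiLC came from another line, and the labels give no growth surface or medium for them. In that comparison line, cell state, medium and the presence of feeders cannot be told apart.

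All 5 fibrillar collagens, the rope-like backbone of connective tissue, fell from 2i to serum, from 2i to MEK inhibitor and in EpiLC. Col3a1, the type III chain of soft connective tissue, lay in 2i at 12.41 and 12.23 in wild type, 11.91 and 12.13 in knockout, and 12.08 and 11.85 in AGP14. In serum it lay at 7.59 and 8.15, 8.19 and 8.01, and 8.60 and 8.60 in the same order of genotypes, and with MEK inhibitor at 10.48 and 10.36 in wild type and 9.98 and 10.26 in knockout. EpiLC arrays held 3.38 and 3.35 on day 2 and 3.23 and 3.24 on day 3. These lay close to the 25th percentile of each array (3.21 on day 2 and 3.23 on day 3), so the fall in EpiLC ends near background. The 3 media and EpiLC did not overlap on any array. Within AGP14, serum minus 2i was -3.37 (SE 0.18, adjusted p = 1.68e-09 by limma), MEK inhibitor minus 2i was -1.90 in both wild type and knockout (SE 0.18, adjusted p = 2.34e-06 and 1.84e-06), and EpiLC day 2 minus wild type in 2i was -8.96 (SE 0.18, adjusted p = 2.09e-16).

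Col1a1, the major type I collagen chain of skin and bone, showed the same order at lower levels. Its arrays in 2i held 9.81 and 9.58 in wild type, 9.79 and 9.96 in knockout and 9.23 and 9.09 in AGP14, and those in serum 4.20 and 4.30, 4.48 and 4.41, and 4.95 and 4.79. EpiLC arrays held 2.36 to 3.04, under the 25th percentile of each array (3.21 to 3.23), so its fall there of 6.96 (SE 0.22, adjusted p = 4.36e-14) ends at a signal that was not told apart from background. Within AGP14, Col1a1 fell by 4.29 from 2i to serum (SE 0.22, adjusted p = 8.38e-10). Col1a2, its partner chain, had -2.42, and Col5a1 and Col5a2, which seed fibrils, had -2.26 and -2.70. With MEK inhibitor against 2i the 5 genes had -1.90 to -1.46 in wild type, all called.

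Collagen VI, which forms beaded filaments around cells, and the small leucine-rich proteoglycans, which bind collagen fibrils, were also called lower as whole groups. The differences of Col6a1, Col6a2 and Col6a3 were -1.33, -1.62 and -1.93 from 2i to serum in AGP14 and -3.31, -3.79 and -3.72 in EpiLC day 2. Lum, the proteoglycan lumican, lay at 9.19 and 8.92 in AGP14 in 2i, 6.18 and 6.19 in AGP14 serum, 9.41 and 9.42 in wild type in 2i, and 2.59 and 2.31 in EpiLC day 2. None of these ranges overlapped, and its differences were -2.87 (SE 0.27, adjusted p = 1.08e-06) and -6.97 (SE 0.27, adjusted p = 7.11e-13), although its EpiLC arrays too lay under the 25th percentile. Dcn, decorin, read 10.80 and 10.56 in AGP14 in 2i and 7.72 and 7.80 in AGP14 serum, and 10.48 and 10.44 in wild type in 2i. It had -2.92 in AGP14 and -3.77 in EpiLC day 2, both called. Bgn, biglycan, differed in how the steps were spread: it fell by 0.95 from 2i to serum in AGP14 (10.93 and 10.71 against 9.86 and 9.87; adjusted p = 0.00161) and by 7.25 in EpiLC day 2 (11.69 and 11.66 against 4.21 and 4.65; adjusted p = 8.09e-15). From day 2 to day 3 Bgn rose by 1.14 (to 5.61 and 5.53; SE 0.19, adjusted p = 0.000321), while 2 further probe sets of Bgn had 0.22 and 0.14 there and -4.89 and -4.98 in EpiLC day 2. Dcn rose by 0.82 (from 6.69 and 6.69 to 7.57 and 7.46; adjusted p = 0.00774). The Dcn rise was no longer called without replicate 1 of day 3 (adjusted p = 0.0601) or with the mean of its probe sets (0.893).

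Among the other secreted proteins, Postn, the matricellular protein periostin, moved like the collagens. Its arrays held 9.58 and 9.42 in AGP14 in 2i and 5.34 and 5.67 in AGP14 serum, 9.78 and 9.97 in wild type in 2i, 6.94 and 6.89 with MEK inhibitor and 1.60 and 1.53 in EpiLC day 2. Its differences were -4.00 (SE 0.28, adjusted p = 2.53e-08) in AGP14, -2.96 (adjusted p = 1.6e-06) with MEK inhibitor in wild type and -8.31 (adjusted p = 9.67e-14) in EpiLC, where it too lay under the 25th percentile. Fbln2, fibulin-2, had -1.505, -1.32 and -5.13 in the same comparisons. Sparc and Fstl1 changed less: Sparc had -1.06 in AGP14 and -2.08 in EpiLC, and Fstl1, a secreted relative of follistatin, -0.88 and -1.64, all called. Without replicate 1 of AGP14 in 2i the Fstl1 fall in AGP14 was not called (adjusted p = 0.0515).

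Fn1, fibronectin, which many cell types including early embryonic cells secrete, had a call from 2i to serum in AGP14 with the replicate block alone and fell in EpiLC. It lay at 11.75 and 11.76 in AGP14 in 2i and 11.57 and 11.53 in AGP14 serum, a difference of -0.20 (SE 0.11, adjusted p = 0.212, or 0.0404 with the replicate block). In wild type it lay at 12.50 and 12.69 in 2i, 12.28 and 12.38 with MEK inhibitor (-0.26, adjusted p = 0.118, or 0.0115 with the block, and 0.56 on a dimmer probe set) and 9.73 and 9.76 in EpiLC day 2, where it fell by 2.85 (SE 0.11, adjusted p = 3.79e-13). Vim, the intermediate filament vimentin, read 12.52 and 12.47 in AGP14 in 2i, 12.23 and 12.28 in AGP14 serum, 12.70 and 12.55 in wild type in 2i and 10.15 and 10.17 in EpiLC day 2. It had -0.24 (adjusted p = 0.133, or 0.0036 with the block) in AGP14, -0.29 with MEK inhibitor in wild type (0.0773, or 0.00095 with the block) and fell by 2.46 in EpiLC (adjusted p = 2.67e-12).

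Of the 4 matrix enzymes and inhibitors, 3 fell from 2i to serum in AGP14 and 4 in EpiLC day 2. In AGP14, Timp3, a metalloproteinase inhibitor, had -2.02, Mmp2, a gelatinase, -1.19 and Lox, a collagen cross-linking enzyme, -1.17, all called, while its relative Loxl1 had -0.26 (adjusted p = 0.388). Timp3 arrays read 8.96 and 8.65 in AGP14 in 2i and 6.82 and 6.75 in AGP14 serum, while in wild type they read 9.39 and 9.82 in 2i and 7.43 and 7.66 with MEK inhibitor (-2.06). Lox moved less with MEK inhibitor, from 9.39 and 9.38 to 8.89 and 8.93 in wild type (-0.47, adjusted p = 0.00355). A further probe set of Lox had larger falls, with -0.80 there, -3.15 from 2i to serum in AGP14 and -5.98 in EpiLC day 2, where the brightest had -2.27. Both genes were without overlap in these comparisons. In EpiLC day 2 all 4 were lower than in wild type in 2i, from -0.76 for Mmp2 (adjusted p = 0.000334) to -2.87 for Timp3 (adjusted p = 1.82e-10). Mmp2 arrays read 8.87 and 8.70 in wild type in 2i and 7.98 and 8.07 in EpiLC day 2, above the 7.17 and 6.85 of AGP14 serum.

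Of the surface and nuclear members, Cav1 (caveolin-1, the coat protein of caveolae), Pdgfrb (a PDGF receptor of mesenchymal cells) and Prrx1 (a homeobox factor of limb and craniofacial mesenchyme) fell with the matrix genes. From 2i to serum in AGP14 their differences were -1.17, -0.95 and -1.03, and in EpiLC day 2 -4.82, -1.80 and -4.12. Cav1 read 9.32 and 9.44 in wild type in 2i, 6.97 and 7.46 in serum, 9.05 and 8.86 in AGP14 in 2i and 7.73 and 7.84 in AGP14 serum. EpiLC arrays held 4.71 and 4.42 on day 2 and 4.37 and 4.9 on day 3, under every stem cell array. Prrx1 too was lowest there, at 3.03 to 3.47 against 5.22 to 7.55 on the stem cell arrays. Its EpiLC levels lay close to the 25th percentile of each array (3.21 to 3.23), so its fall there ends near background. The Pdgfrb fall in AGP14 was not called without replicate 1 of AGP14 in 2i (adjusted p = 0.0749). Thy1, a surface glycoprotein of fibroblasts and of some stem cell cultures, stayed between 6.56 and 7.42 on all 26 arrays, with 0.30 (adjusted p = 0.112) for serum minus 2i in AGP14 and -0.04 (adjusted p = 0.83) in EpiLC. Twist1, a mesenchymal transcription factor, had 0.24 (SE 0.34, adjusted p = 0.723) and -0.61 (SE 0.34, adjusted p = 0.177), at 4.33 to 6.13 on all arrays.

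**Figure D3:**
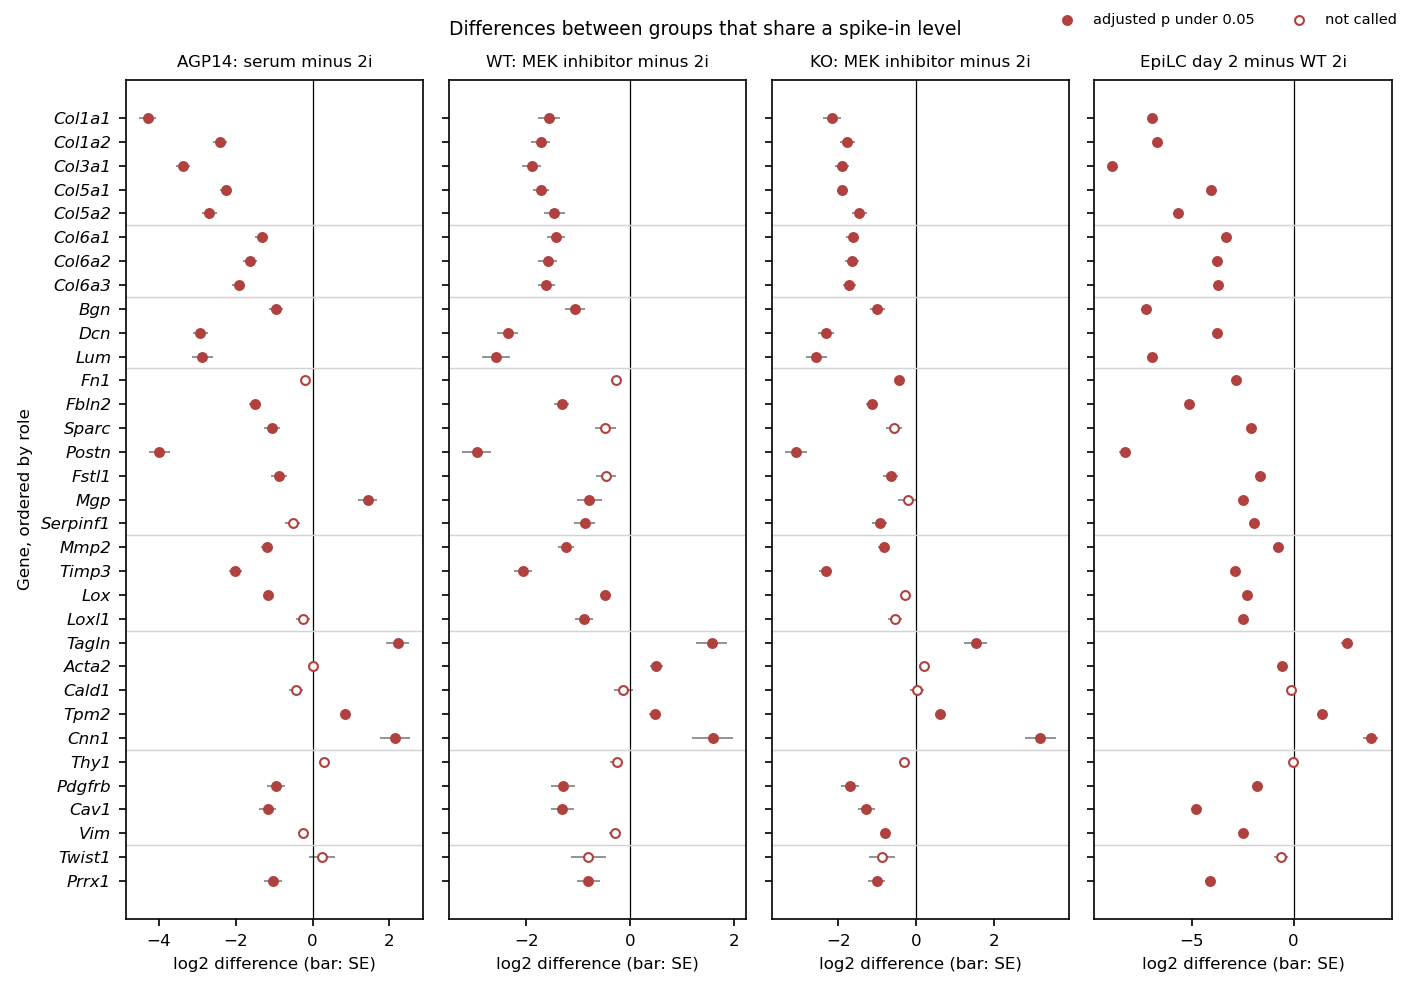
Log2 difference of each of the 33 genes (points, with bars for 1 standard error) in the 4 comparisons within 1 spike-in set, with filled points for an adjusted p under 0.05. Collagens, proteoglycans and Postn lie to the left of 0 in all 4 panels, and Tagln, Tpm2 and Cnn1 to the right.

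Tagln, Cnn1 and Tpm2, 3 of the 5 contractile genes, rose from 2i to serum in AGP14, with MEK inhibitor and in EpiLC day 2. Tagln, transgelin, an actin-binding protein of smooth muscle, lay at 4.23 and 3.80 in AGP14 in 2i against 6.31 and 6.16 in AGP14 serum, and at 5.18 and 5.37 in wild type in 2i against 6.57 and 7.12 with MEK inhibitor. EpiLC held 7.80 and 8.05 on day 2 and 10.06 and 10.16 on day 3, the highest levels of this gene in the series. It rose by 2.22 (SE 0.30, adjusted p = 3.83e-05) from 2i to serum in AGP14, by 1.57 (adjusted p = 0.00158) and 1.51 (adjusted p = 0.00183) with MEK inhibitor against 2i in wild type and knockout, by 2.65 (adjusted p = 8.05e-07) in EpiLC day 2 and by 2.19 (adjusted p = 3.79e-05) from day 2 to day 3. With only the 4 arrays compared in the model, the rises with MEK inhibitor were not called (adjusted p = 0.0529 and 0.14). Across the spike-in sets, serum minus 2i was 0.15 (adjusted p = 0.754) in wild type and 0.32 (adjusted p = 0.457) in knockout.

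Cnn1, calponin 1, a smooth muscle actin regulator, had the most opposed pattern. It lay at 3.51 and 3.03 in wild type, 1.05 and 2.91 in knockout and 2.66 and 2.88 in AGP14 in 2i, below the 25th percentile of each knockout and AGP14 array, so its rises there start from a signal that was not told apart from background. Serum arrays held 5.82 and 5.78, 6.24 and 6.26, and 5.09 and 4.74 in the same order, and EpiLC 7.03 and 7.10 on day 2 and 8.02 and 7.99 on day 3. No 2i array overlapped a serum or EpiLC array. Its rise from 2i to serum was 2.15 in AGP14 (SE 0.39, adjusted p = 0.000659), 2.53 in wild type (adjusted p = 4.52e-05) and 4.27 in knockout (adjusted p = 9.83e-08), and in EpiLC day 2 it was 3.79 (adjusted p = 2.53e-07). The smaller rise from 2i to serum with MEK inhibitor in wild type (1.59, adjusted p = 0.0101) was not called without replicate 2 of wild type in 2i or replicate 1 with MEK inhibitor.

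Tpm2, beta-tropomyosin, rose in the same direction by less and with little spread. Its arrays read 8.57 and 8.40 in AGP14 in 2i and 9.44 and 9.22 in AGP14 serum (0.84, SE 0.11, adjusted p = 4.43e-05), and 8.33 and 8.34 in wild type in 2i and 9.68 and 9.75 in EpiLC day 2 (1.38, SE 0.11, adjusted p = 1.75e-08), and these pairs of groups did not overlap. With MEK inhibitor against 2i it had 0.48 in wild type (adjusted p = 0.0082, or 0.0666 without replicate 2 with MEK inhibitor) and 0.61 in knockout (adjusted p = 0.00119). Of its 3 further probe sets, 2 had 1.01 and 0.86 from 2i to serum in AGP14 and the dimmest had -0.08. Acta2, smooth muscle actin, and Cald1, caldesmon, had no call in AGP14 without the block: Acta2 read 8.57 and 8.26 in 2i and 8.38 and 8.45 in serum, with equal means, and Cald1 had -0.42 (adjusted p = 0.123, or 0.0128 with the block), with 0.30 and 0.45 on the 2 next brightest probe sets. In EpiLC day 2, Acta2 had -0.59 (adjusted p = 0.00109) and Cald1 -0.11 (adjusted p = 0.713) against wild type in 2i. From day 2 to day 3 of EpiLC both rose, Acta2 by 1.74 (from 7.97 and 8.01 to 9.71 and 9.75; SE 0.13, adjusted p = 4.94e-08) and Cald1 by 1.13 (from 9.91 and 9.94 to 10.95 and 11.17; SE 0.18, adjusted p = 0.000192), with Tpm2 (0.64, adjusted p = 0.000567). Thus 4 of the 5 contractile members rose from day 2 to day 3, while Cnn1 had 0.94 (adjusted p = 0.112), and 0 of the 5 fibrillar collagens rose.

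**Figure D4:**
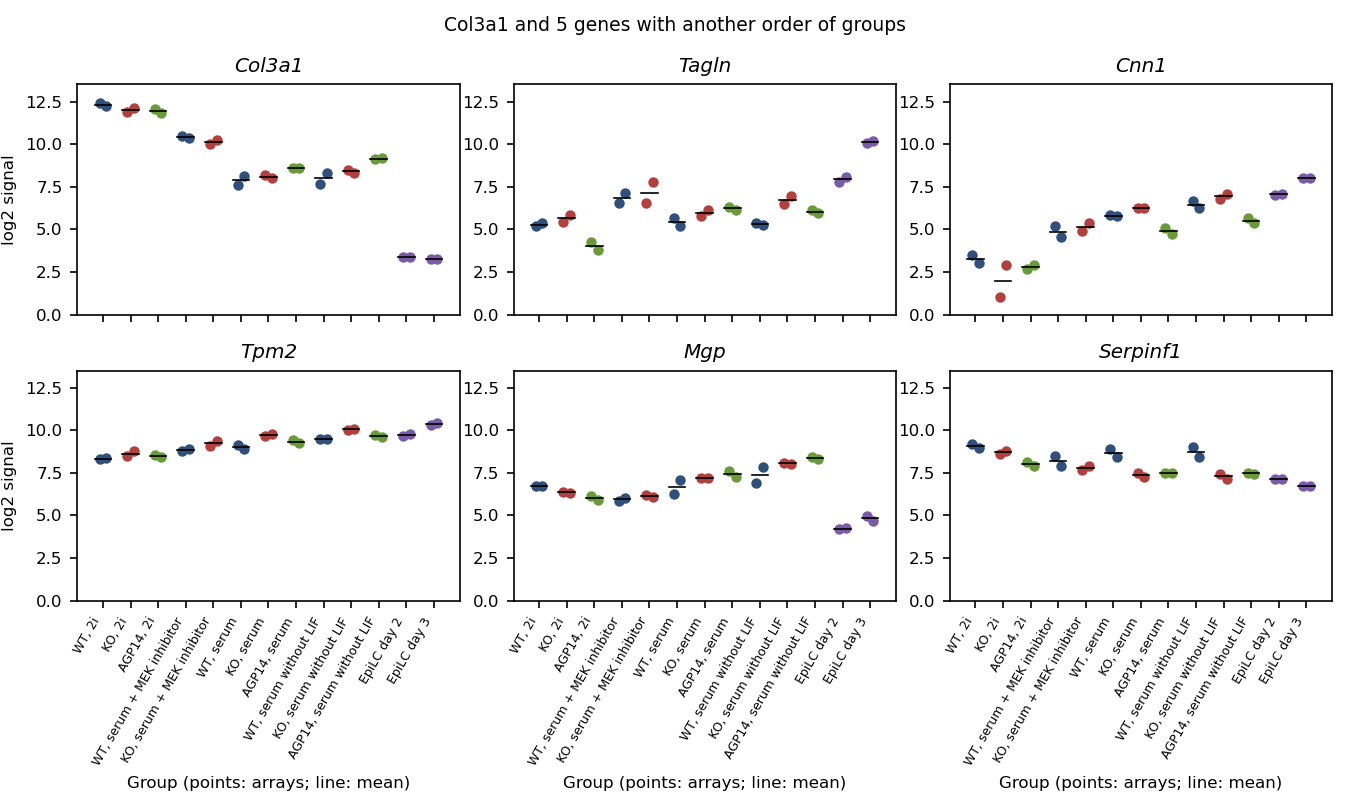
Log2 signal of Col3a1 and of 5 genes with another order of groups on each array (points; line for the mean of 2 arrays; blue wild type, red knockout, green AGP14, purple EpiLC). Tagln, Cnn1 and Tpm2 are highest in EpiLC day 3, Mgp in AGP14 without LIF and Serpinf1 in wild type.

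Mgp, matrix Gla protein, an inhibitor of calcification, was high in serum and low in EpiLC. It lay at 6.72 and 6.74 in wild type, 6.39 and 6.34 in knockout and 6.13 and 5.89 in AGP14 in 2i, at 6.28 and 7.08, 7.19 and 7.19, and 7.63 and 7.26 in serum, and at 6.92 and 7.82, 8.10 and 8.04, and 8.44 and 8.32 without LIF. EpiLC arrays held 4.19 to 4.99, under all stem cell arrays. Serum minus 2i was 1.43 in AGP14 (SE 0.24, adjusted p = 0.00036), where the groups did not overlap, and -0.05 in wild type (adjusted p = 0.908), where they did. The rise of 0.82 in knockout (adjusted p = 0.0117) was not called without replicate 2 in 2i or without either serum array (adjusted p up to 0.0577). Removal of LIF gave 0.69, 0.88 and 0.94 in wild type, knockout and AGP14, with adjusted p of 0.189, 0.103 and 0.117, or 0.0222, 0.00542 and 0.00577 with the replicate block. The arrays with and without LIF did not overlap in knockout and AGP14 and overlapped in wild type.

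Across the spike-in sets the same direction was seen. From 2i to serum 25 members were lower and 2 higher in wild type (34.6% of all genes called, 19.4% lower and 15.2% higher, median -1.87), and 26 lower and 3 higher in knockout (35.8% of all genes called, 20% lower and 15.8% higher, median -1.78). Col1a1 had -5.45 and -5.43 (SE 0.22, adjusted p = 8.68e-12 and 6.13e-12), and Tpm2 and Cnn1 were called higher in both. With MEK inhibitor against serum 26 members were higher and 2 lower in wild type (25.4% of all genes called, 11.2% lower and 14.3% higher, median 1.05) and 23 higher and 3 lower in knockout (24.5% of all genes called, 9.56% lower and 15% higher, median 0.77). Col1a1 rose by 3.88 and 3.28 (SE 0.22, adjusted p = 5.36e-09 and 1.19e-08). Mgp was lower in both (-0.74, adjusted p = 0.031, and -1.04, adjusted p = 0.00377), and its wild-type call was lost without replicate 2 in serum or either MEK inhibitor array (adjusted p up to 0.397). In knockout Cnn1 (-1.095, adjusted p = 0.0469 by limma) and Tpm2 (-0.475, adjusted p = 0.0049) were also lower with MEK inhibitor than in serum, while 3 of the 5 contractile members were higher. With the replicate block, Serpinf1 (-0.40, adjusted p = 0.009) was also called from 2i to serum in wild type and Acta2 (-0.33, adjusted p = 0.0263) in knockout. For MEK inhibitor against serum it added Cnn1, Serpinf1 and Twist1 in wild type (-0.94, -0.48 and -0.72) and Thy1, Timp3, Serpinf1 and Twist1 in knockout (-0.31, 0.43, 0.40 and -0.68), at an adjusted p of up to 0.0462. These comparisons share serum arrays with one another.

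LIF removal called few members without the replicate block and more with it. Fn1 alone was lower in wild type (-0.44, adjusted p = 0.0438, 1.5% of all genes called, 1.17% lower and 0.33% higher) and in knockout (-0.56, adjusted p = 0.00925, 1.1% of all genes called, 0.83% lower and 0.269% higher), and no member was called in AGP14 (0.302% of all genes called, 0.187% lower and 0.115% higher, 7 members at an unadjusted p under 0.05 by limma). Fn1 lay at 11.20 and 11.44 in serum and 10.69 and 11.07 without LIF in wild type, and at 10.88 and 10.77 and 10.35 and 10.17 in knockout, without overlap in either. Both calls rest on single arrays: the wild-type call was lost without replicate 1 without LIF or replicate 2 in serum (adjusted p up to 0.44), and the knockout call without replicate 2 without LIF or replicate 1 in serum (up to 0.131). In wild type the count was 4 without replicate 1 in serum and 2 without replicate 2 without LIF. With the block 5 members were called in wild type (6.68% of all genes called), 6 in knockout (4.6% of all genes called) and 4 in AGP14 (3.52% of all genes called). Mgp, Mmp2 and Tpm2 were higher without LIF in all 3 genotypes: Mmp2 had 0.58, 0.49 and 0.64 (adjusted p = 0.00306, 0.0126 and 0.00326) and Tpm2 0.45, 0.35 and 0.34 (adjusted p = 0.00202, 0.0156 and 0.0236) in wild type, knockout and AGP14. Cald1 was higher in knockout and AGP14 (0.51 and 0.59, adjusted p = 0.0197 and 0.0101) and Tagln in knockout (0.77, adjusted p = 0.0392), while Vim was lower in wild type (-0.30, adjusted p = 0.00288).

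Between arrays labelled knockout and wild type, most members had no call. In 2i 1 member was lower (9.15% of all genes called, 5.52% lower and 3.63% higher), with MEK inhibitor 1 was lower (4.08% of all genes called, 2.22% lower and 1.86% higher), in serum 3 were higher and 3 lower (4.17% of all genes called, 2.79% lower and 1.39% higher), and without LIF 4 were higher and 2 lower (4.19% of all genes called, 2.44% lower and 1.75% higher). The median difference was -0.10, -0.17, 0.18 and 0.43 in that order of media, and the collagens had no call in any. Without LIF the count rose to 17, 14 of them higher, without wild-type replicate 2, and fell to 2 without knockout replicate 2, so the difference between these groups rests on which arrays are used. In serum it was 3 without wild-type replicate 2, with MEK inhibitor it was 3 without knockout replicate 1, and in 2i the call of Cnn1 (-1.29, adjusted p = 0.0439) was lost without knockout replicate 1 or either wild-type array (adjusted p up to 0.612).

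Serpinf1, pigment epithelium-derived factor, a secreted serpin, had the largest difference of all members between these labels in serum and in serum without LIF. It lay at 8.92 and 8.44 in wild type and 7.46 and 7.28 in knockout in serum, and at 9.03 and 8.43 and 7.44 and 7.16 without LIF, so the groups did not overlap. The differences were -1.31 (SE 0.20, adjusted p = 0.000967) and -1.43 (SE 0.20, adjusted p = 0.000348), and both held without any 1 array. They were not called when only the 4 arrays compared were modelled (adjusted p = 0.119 and 0.104), a model that called 0 members between these labels in any medium, against 8 members at an unadjusted p under 0.05 in 2i, 9 in serum, 23 when LIF was removed and 6 with MEK inhibitor in the limma model of all arrays. A dimmer probe set of the gene had -0.43 without LIF. In 2i the difference was -0.38 (adjusted p = 0.296) and with MEK inhibitor -0.44 (adjusted p = 0.292). AGP14 arrays lay with knockout, at 7.50 and 7.51 in serum (0.13, adjusted p = 0.763) and 7.49 and 7.43 without LIF (0.16, adjusted p = 0.692).

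Tpm2 was higher in knockout-labelled arrays in serum (9.64 and 9.76 against 9.15 and 8.90; 0.68, SE 0.11, adjusted p = 0.0025) and without LIF (10.02 and 10.08 against 9.48 and 9.47; 0.57, adjusted p = 0.00764, or 0.0653 without knockout replicate 2). Fn1 was lower without LIF (-0.62, SE 0.11, adjusted p = 0.00235), a call that held without any 1 array. In serum its difference of -0.49 (adjusted p = 0.012) was lost without knockout or wild-type replicate 2 (up to 0.119). Vim was lower with MEK inhibitor (11.92 and 11.65 against 12.34 and 12.32; -0.55, adjusted p = 0.005, or 0.086 without knockout replicate 2). Mmp2 had 0.69 in serum and 0.59 without LIF (adjusted p = 0.012 and 0.0254), but neither call held: in serum it was lost if knockout replicate 1 or wild-type replicate 2 was left out (up to 0.151), and without LIF if either knockout array or wild-type replicate 2 was (up to 0.22).

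The transgene line differed from knockout-labelled arrays in both directions within the list. In serum 4 members were higher and 3 lower (10.5% of all genes called, 5.28% lower and 5.23% higher, median 0.34), and without LIF 6 were higher and 3 lower (13.3% of all genes called, 5.22% lower and 8.09% higher, median 0.41). Fn1 lay at 11.57 and 11.53 in AGP14 against 10.88 and 10.77 in knockout in serum (0.72, SE 0.11, adjusted p = 0.000211), and at 11.34 and 11.49 against 10.35 and 10.17 without LIF (1.16, SE 0.11, adjusted p = 8.09e-07). Vim lay at 12.23 and 12.28 against 11.65 and 11.24 in serum (0.81, adjusted p = 7.69e-05) and 12.08 and 12.12 against 11.43 and 11.25 without LIF (0.76, adjusted p = 6.98e-05). Neither gene overlapped between the groups, and these 4 calls were the ones that held without any 1 array. The counts were 3 without AGP14 replicate 2 and 4 without knockout replicate 2 in serum, and 2 without AGP14 replicate 2, 5 without AGP14 replicate 1 and 5 without knockout replicate 2 without LIF. Of the 12 naive pluripotency genes, 11 were higher in AGP14 than in knockout in serum and 11 without LIF, and their part in the members' differences was not tested. Mmp2 was lower in both media (-0.77, adjusted p = 0.00208, and -0.62, adjusted p = 0.00716), but not without AGP14 replicate 2 in serum (0.0529), nor without AGP14 replicate 2 or knockout replicate 1 without LIF (up to 0.0942). The other lower calls in serum and without LIF were of contractile genes. Tpm2 had -0.37 and -0.38 (adjusted p = 0.0466 and 0.0339 by limma), and Cnn1 -1.335 and -1.43 (adjusted p = 0.0331 and 0.0184).

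In 2i, across the spike-in sets, 13 members were lower in AGP14 than in knockout-labelled arrays and 0 higher (24.2% of all genes called, 16% lower and 8.22% higher, median -0.36). The largest falls that held without any 1 array were of Tagln (-1.62, SE 0.30, adjusted p = 0.000546), Cald1 (-0.91, adjusted p = 0.00116), Fstl1 (-0.90, adjusted p = 0.00237) and Timp3 (-0.85, adjusted p = 0.00105), and Loxl1 and Fn1 also held. The count was 6 without AGP14 replicate 2, and 6 after quantile normalization. Col3a1 had -0.05 (adjusted p = 0.876) and Dcn 0.38 (adjusted p = 0.202).

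Lists of related genes were read beside the members, against the 18.2% of all genes called from 2i to serum in AGP14 and the 38.3% called in EpiLC day 2. Of 33 further fibroblast genes 28 were measured, and from 2i to serum in AGP14 7 were lower and 4 higher, with Col12a1, a fibril-associated collagen, at -2.79 (adjusted p = 2.17e-08) and S100a4, a calcium-binding protein, at 1.95 (adjusted p = 4.16e-05). In EpiLC day 2, 19 were lower and 4 higher, with Cdh11, a mesenchymal cadherin, at -6.49 (adjusted p = 4.23e-13). The lowest array of Cdh11 in the series read 1.55, so this fall may end near background. Of 12 collagen-processing genes 9 were measured, and 3 were lower and 0 higher in AGP14 serum and 8 lower and 0 higher in EpiLC day 2. Serpinh1, the collagen chaperone HSP47, had -0.85 (adjusted p = 3.91e-05) and -1.98 (adjusted p = 1.45e-10). Of 13 genes of TGF-beta signalling, which drives matrix synthesis in fibroblasts, 12 were measured, with 3 lower and 2 higher and then 6 lower and 1 higher. The receptor Tgfbr2 had -2.13 (adjusted p = 6.73e-05) and -4.60 (adjusted p = 7.26e-10). Its lowest array in the series read 3.04, so the larger fall too may end near background.

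Markers of other cell types were read on the same arrays, again beside 18.2% of all genes called from 2i to serum in AGP14 and 38.3% in EpiLC day 2. For MEK inhibitor against 2i the share was 12.5% in wild type and 13.2% in knockout. Over the 7 measured macrophage genes the array means ran from 3.88 to 5.04 with at most 1 call in each direction in any comparison, and C1qa was listed at 0 on 5 arrays. Of 6 endothelial genes, 2 were lower in EpiLC day 2 and 0 were called from 2i to serum in AGP14, with Tie1 listed at 0 on 4 arrays. Naive pluripotency genes were at levels that partly moved with the members: 11 of 12 were lower in EpiLC day 2, 2 were lower and 1 higher in AGP14 serum, and 0 in wild type and 2 in knockout were lower with MEK inhibitor against 2i. The array means of that list were 11.29 and 11.29 with MEK inhibitor and 11.37 to 11.46 in 2i in wild type, while the members lay at 8.29 ± 0.02 and 9.25 ± 0.01. Of 7 skeletal muscle genes, 1 was higher and 0 lower in AGP14 serum and 3 were higher and 1 lower in EpiLC day 2, where Mylpf, a myosin light chain, fell by 4.14 (adjusted p = 2.7e-10). The log2 of their summed signal was 11.34 to 12.14 on wild-type and knockout arrays in 2i, 10.76 to 10.85 in AGP14 in 2i, 10.72 to 10.76 in AGP14 serum and 8.41 to 8.76 in EpiLC day 2, so among these groups this sum was highest in wild type and knockout in 2i and lowest in EpiLC day 2. The sum is weighted to Mylpf, the brightest of the 7 (mean 9.81, against 6.20 for Des, the next). The array means of the 7 genes overlapped, at 4.72 to 5.29 in wild type and 4.77 to 4.89 in knockout in 2i, and 4.87 to 5.25 in EpiLC day 2. Of 11 primed and mesoderm genes 10 were measured, and their sum ran the other way, from 9.002 to 9.33 in 2i to 10.47 to 10.71 in AGP14 serum and 12.71 to 12.73 in EpiLC day 2, with 3 higher and 1 lower in AGP14 serum and 3 higher and 2 lower in EpiLC day 2. Of 6 epithelial genes, whose array means ran from 7.38 to 8.93, 1 was higher and 2 lower in AGP14 serum and 2 were higher and 0 lower in EpiLC day 2. The part of these changes in those of the members was not tested.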

How the data were processed

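RNA of 26 samples was measured on Affymetrix arrays with 1 array per sample. The authors deposited log2 signals per probe set (0 to 13.89, with array medians of 4.86 to 5.01). The log base was inferred from this range, so differences rest on an inferred base. For background correction, normalization and summarisation, the sources used here give no method. The table held 45100 probe sets, of which 34944 had 1 gene symbol, 932 had several and 9160 had none, beside 64 controls. For each of 18193 genes the brightest probe set of that symbol alone was used, and the platform annotation can be old. The members had 41 further probe sets, and some did not share the sign of the brightest. These were 9 from 2i to serum in AGP14 and 7 for MEK inhibitor against 2i in wild type. For EpiLC day 2 against wild type in 2i they were 6, and for day 3 against day 2 they were 12. Between knockout and wild type without LIF they were 9.

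All 26 arrays were fitted in 1 model of 13 groups with limma 3.58.1 in R 4.3.3 (lmFit and eBayes with an intensity trend, 13 residual degrees of freedom), and p-values were adjusted by Benjamini-Hochberg over all genes in each of 19 comparisons, with a call at 0.05. Levels, correlations and figures came from Python 3.11.15 (numpy 2.4.6, pandas 2.3.3, matplotlib 3.10.9). Same-numbered arrays of a genotype correlated in their deviations from group means (15 of 15 pairs of stem cell groups over 0.1, 0.42 to 0.78), so comparisons of media were also fitted with the number as a block within genotype. The labels do not say what a number marks, and between genotypes the numbers did not pair. The script was tested on simulated data. The number of arrays limits the precision.

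The members and lists were chosen with earlier results of these data known. Any member may be named. Genes of other lists are named only when they rank in the first 5 by p in a comparison, or the first 3 by mean level, within their list, and other genes only by likeness. Tie1 and C1qa were named for their values of 0, after these were seen. The spike-in sets, MEK inhibitor against 2i and the interaction tests were chosen after seeing the data. Alternatives were quantile normalization, the mean of a gene's probe sets, genes with a mean under 5 left out, no intensity trend, only the arrays compared, a replicate block, 1 spike-in set alone and each array left out.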

Additional observations from a re-analysis of the deposited data

Results flagged for a closer look

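The change from 2i to serum differed between genotypes for 15 members when AGP14 was set against knockout-labelled arrays, by an interaction term in limma at an adjusted p under 0.05, where 14.2% of all genes were called. AGP14 minus knockout was 1.14 for Col1a1, 0.97 for Col1a2, 0.79 for Col5a1, 0.87 for Col5a2 and 1.10 for Col6a1. It was 1.02 for Bgn, 0.77 for Fbln2, 1.53 for Fstl1 and 1.495 for Fn1. Timp3 had 0.73, Lox 0.45, Loxl1 0.99, Vim 0.91 and Tagln 1.90, while Cnn1 alone of these 15 was below 0, at -2.12. For the matrix genes a value above 0 means a smaller fall in AGP14, and for Cnn1 a value below 0 means a smaller rise. In knockout the 2i and serum arrays lie in different spike-in sets and in AGP14 in the same one, so this difference and the set cannot be told apart. Of the 15 terms, 5 held without any 1 of the 8 arrays (Col6a1, Fstl1, Fn1, Vim and Tagln). The other 10 were each lost without replicate 2 of AGP14 in 2i (adjusted p 0.0523 to 0.202), and each also without at least 1 other array. Both 2i groups of Cnn1 had a signal that was not told apart from background, and its term was -1.195 without knockout replicate 1 in 2i (adjusted p = 0.0469) and -3.06 without replicate 2. With the replicate block 20 terms were called (23.1% of all genes), with Lum (0.82), Mmp2 (-0.54), Sparc (0.77), Cald1 (0.65) and Serpinf1 (0.82) added.

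Between knockout-labelled and wild-type arrays the change from 2i to serum differed for 1 of 33 members, a share near the 2.97% of all genes called. This was Mmp2, by 1.05, with both genotypes' arrays split over the spike-in sets in the same way. It was lost without knockout replicate 1 in serum (0.91, adjusted p = 0.0588). With the replicate block 8 terms were called there (9.6% of all genes), and 3 for MEK inhibitor against serum (3.36% of all genes).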

How the results depend on the processing

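Of 204 alternatives for the counts of members called, 160 gave a count within 1.5 times, and 206 of 271 calls held without any 1 array. With only the arrays compared in the model, 0 members were called between knockout and wild type in 2i, serum, serum without LIF and MEK inhibitor and for LIF removal in wild type and knockout, but 7 for LIF removal in AGP14. Leaving out dim genes gave 3 between knockout and wild type in 2i, 2 with MEK inhibitor and 3 for LIF removal in wild type. Without an intensity trend these were 0 between knockout and wild type in 2i, 4 between AGP14 and knockout in serum and 0 for LIF removal in wild type. The mean of probe sets gave 3 between knockout and wild type in serum and 2 for LIF removal in wild type and in knockout, and turned Fbln2 between AGP14 and knockout in serum to -0.12. Quantile normalization gave 2 between knockout and wild type with MEK inhibitor, 6 between AGP14 and knockout in 2i and 2 for LIF removal in wild type, and 1 spike-in set alone gave 0 for the last. The cause was not tested, except that fewer arrays or genes enter some of these models.

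A replicate block gave 2 calls between knockout and wild type in 2i, and 5, 6 and 4 for LIF removal in wild type, knockout and AGP14. It lost no call between media. Correlations of same-numbered deviations ran from -0.15 to 0.16 between genotypes from 0.42 to 0.78 in the 15 pairs of stem cell groups of one genotype, and 0.0033 between the EpiLC days, over 9484 genes. Blocks for comparisons of media were set within a genotype, and those between genotypes and for EpiLC, where arrays share only a number, over all arrays.

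With each array left out in turn, counts ran from 0 to 1 between knockout and wild type in 2i, 3 to 4 in serum, 2 to 17 without LIF and 1 to 3 with MEK inhibitor. Between AGP14 and knockout they ran from 6 to 12 in 2i, 3 to 5 in serum and 2 to 6 without LIF. LIF removal gave 0 to 4 in wild type, 0 to 1 in knockout and 0 to 0 in AGP14. Serum against 2i gave 27 to 28, 28 to 29 and 23 to 25 in wild type, knockout and AGP14, MEK inhibitor against serum 24 to 27 and 18 to 24, MEK inhibitor against 2i 21 to 23 and 22 to 26, EpiLC day 2 against wild type in 2i 30 to 30, and day 3 against day 2 6 to 9.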

Other observations

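Outside the lists, the genes whose levels were most like the mean of the members over all 26 arrays were Rnase4, a secreted ribonuclease (Pearson r 0.975), Dap (0.972), Prss23, a secreted protease (0.969), and Ptx3, a secreted pentraxin of innate immunity (0.963), among 9454 genes ranked. Col12a1 of the further fibroblast genes had 0.967 and Tgfbr2 0.962. The lowest were Wdr18 (-0.962), Fam220a (-0.959), Snrpb, a spliceosome protein (-0.952), Lyar (-0.949) and Ruvbl1, a helicase of chromatin remodelling complexes (-0.948). Over the 22 stem cell arrays B2m, the light chain of MHC class I, ranked first (0.977), and it is in the housekeeping list. The proteoglycan Sdc2 (0.972), Cept1 (0.972) and Tstd3 (0.97) came next, and the lysosomal protease Ctsb ranked 7 (0.963). These points share media, lines and labelling, and the values are a description.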
